A study of Mus musculus with 2 samples.

Results

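The 10 genes described here encode the TGF-beta ligands (Tgfb1, Tgfb2, Tgfb3), the integrin subunits that activate them (Itgav, Itgb6, Itgb8), their receptors (Tgfbr1, Tgfbr2, Tgfbr3) and the inhibitory Smad of the pathway (Smad7). They were taken by name from the 33696 genes of the count matrices, and all 10 were detected in both libraries. Live cells sorted from the lungs of adult mice on a C57BL6/J background were profiled by droplet-based 3′ single-cell RNA sequencing, with 1 library labelled GFI1 KO, with a germline deletion of the transcriptional repressor GFI1, and 1 library labelled GFI1 WT. No treatment was named for either library. With 1 library per genotype, genotype, mouse and library cannot be told apart, no test was possible, and every interval below is an exact 95% interval that covers counting error only.

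TGF-beta is secreted as a latent complex in which the propeptide folds around the mature cytokine and keeps it from its receptors. Integrins that combine the alpha-v subunit (Itgav) with beta-6 (Itgb6, on epithelium) or beta-8 (Itgb8, on regulatory T cells, dendritic cells and mesenchyme) bind an arginine-glycine-aspartate motif in the propeptide and free the cytokine. The active ligand assembles the type II receptor (Tgfbr2) with the type I receptor (Tgfbr1), often after capture by betaglycan (Tgfbr3), and Smad proteins carry the signal to the nucleus, where Smad7 is induced as a feedback inhibitor. In the lung the pathway is known for its part in alveolar macrophage identity, T cell restraint and matrix deposition.

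The integrin motif is the part of the ligand genes that links them to the integrin genes, and it is shown here because the ligands do not share it. The codons were read from the coding sequences of the GENCODE M21 transcripts on GRCm38, an older build than the GRCm39 of the count files. Each run of 30 bases is the coding strand from 5′ to 3′, and capitals mark the motif codons, or in Tgfb2 the bases aligned to those of Tgfb1.

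Tgfb1: cccaaacgtCGGGGCGACctgggcaccatc

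Tgfb2: acatatgccAGTGGTGATcagaaaactata

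Tgfb3: gaccatggcCGTGGAGACctggggcgtctc

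The Tgfb1 run lies in exon 5 of 7 at chr7:25697133-25697162 on the plus strand, and the Tgfb3 run in exon 5 of 7 at chr12:86062153-86062182 on the minus strand. Each of these coding sequences held 1 in-frame motif. The Tgfb2 run lies in exon 6 of 8 at chr1:186630741-186630770 on the minus strand, and its coding sequence held 0 in-frame motifs. The ligand genes that carry the integrin motif are therefore Tgfb1 and Tgfb3.

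After the filters on cells, 10495 cells of the KO library and 19342 of the WT library were kept, with medians of 11076 and 6217 UMIs (unique molecular identifiers, each standing for 1 captured RNA molecule) per cell, and 74 barcodes were found in both. Clusters were named by marker genes into 20 classes, and 1677 KO and 2593 WT cells stayed unnamed. The libraries held very different cells: classical monocyte-like cells numbered 3525 and 260 in the KO and WT libraries, neutrophil-like cells 8 and 1432, endothelial-like cells 115 and 2331, stroma-like cells 19 and 352, and epithelial-like cells 159 and 182. Levels were therefore compared within a class, as UMIs per 1000000 UMIs of the class (CPM). Between classes they were compared for 1 gene at a time. Gfi1 itself was present at 3.60 CPM in the KO library and 3.47 CPM in the WT library, so the 3′ counts could not check the label, and libraries are named by their labels. Defining markers were present where the class names require them, for example Foxp3 at 124 and 149.5 CPM in Treg-like cells and Cldn5 at 3644 and 3442 CPM in endothelial-like cells, in the KO and WT libraries respectively.

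In several classes the markers or the antibody tags, which count surface proteins on the same cells, went against the name in 1 library. The epithelial-like class was mixed. The median CD45 tag, a protein of all leukocytes, was 557 in its KO cells and 6 in its WT cells, and the median tag of the myeloid protein CD11b was 351 and 2. Of its cells, 36 of 159 KO and 137 of 182 WT cells had a CD45 tag count under 50, a limit set after seeing the data. Those low-tag cells had the epithelial gene Epcam at 263 and 169 CPM and Cd44 at 75.9 and 106 CPM. The KO cells over the limit had 6.94 CPM of Epcam and 3745 CPM of Cd44. Cd44 is not a gene of leukocytes alone, and low-tag stroma-like cells had it at 191 and 97.1 CPM. By tag the KO class was mostly leukocytes, so its values below are given for the low-tag cells as well. The low-tag cells were not alike either. The alveolar type 2 gene Sftpc was at 25820 CPM in the KO and 6270 CPM in the WT low-tag cells (ratio 4.12). Their median depths were 2600 and 8446 UMIs per cell. The part of this makeup in the low-tag ratios was not tested. In the endothelial-like class 110 of 115 KO and 2244 of 2331 WT cells were under the limit, and in stroma 17 of 19 and 308 of 352.

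Smaller classes also stood apart. The KO interstitial macrophage-like class held 11 cells, in which the alveolar macrophage gene Marco was at 2809.7 CPM, against 70.7 CPM in the WT cells. The 8 KO neutrophil-like cells had a median Ly6G tag of 11 and 13152.5 UMIs per cell, against 242.5 and 2812 in the WT cells, and the granule-gene myeloid-like class, with 55 KO and 3 WT cells, had median CD11c tags of 7 and 510. Ratios from these 3 classes compare unlike cells.

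**Figure D1:**
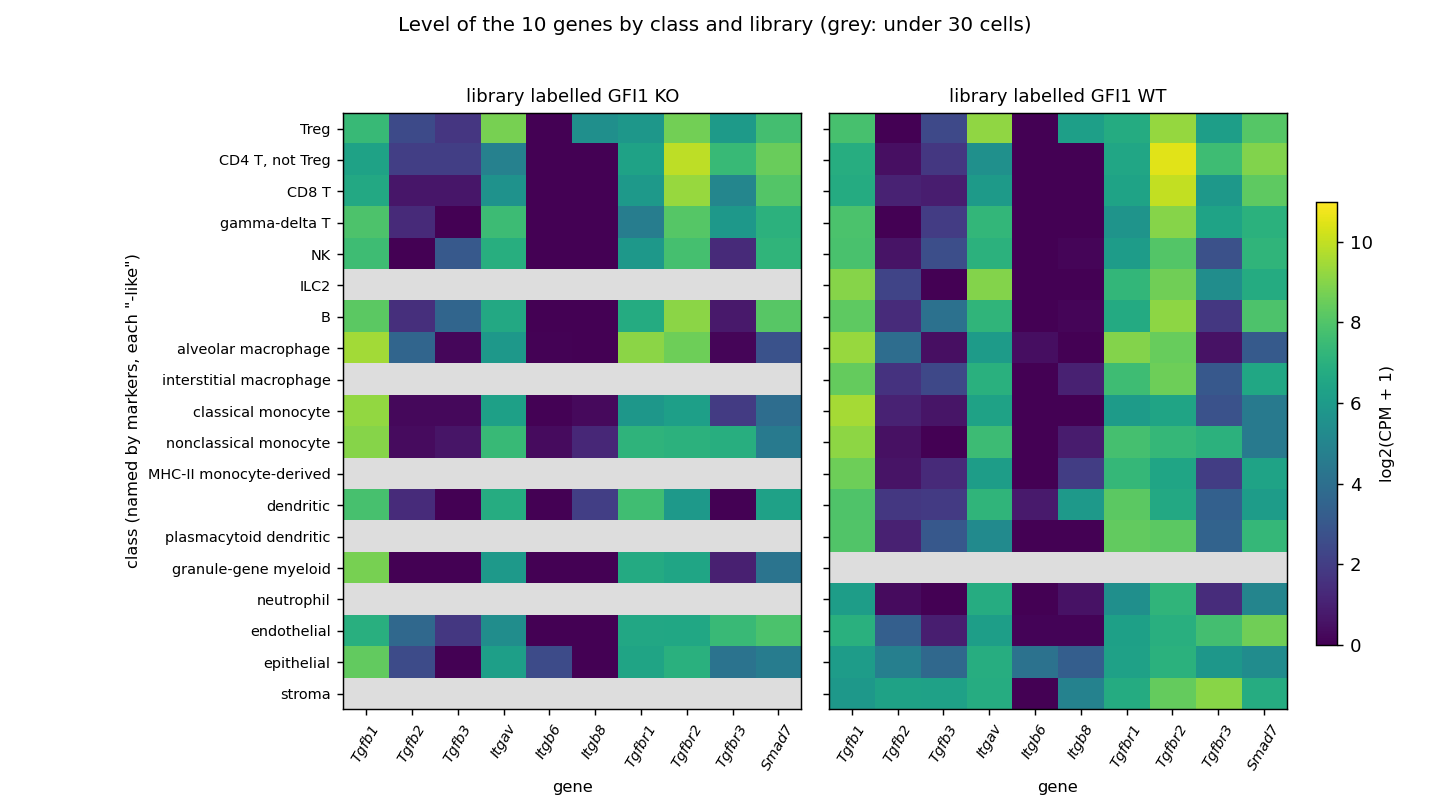
Level of each gene (columns) in each class (rows) in the library labelled GFI1 KO (left) and GFI1 WT (right), as log2(CPM + 1), where CPM is UMIs per 1000000 UMIs of the class. Classes with fewer than 30 cells in a library are grey. Tgfb1 is bright in macrophages and monocytes, Tgfbr2 in T cells, and Itgb6 and Itgb8 are dark in nearly all rows.

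Tgfb1, the main ligand of immune cells, was highest in mononuclear phagocytes in both libraries. In alveolar macrophage-like cells it stood at 716 CPM in KO cells and 623 CPM in WT cells, a ratio of 1.15 (1.13 to 1.17). Classical monocyte-like cells had 589 and 735 CPM (ratio 0.802, 0.759 to 0.847), and nonclassical monocyte-like cells had 517 and 561 CPM (ratio 0.921, 0.859 to 0.987). Alveolar macrophages thus ranked above classical monocytes under the KO label and below them under the WT label. The monocyte comparison was made over unequal clusters, because 886 KO cells but 7 WT cells lay in a cluster led by F13a1. Within a cluster led by Ly6c2 and Stxbp6, with 41 and 138 cells, Tgfb1 was 686 and 760.3 CPM (ratio 0.903, 0.773 to 1.05), and within one led by Saa3 and Ms4a4a, with 907 and 54 cells, it was 640.3 and 738 CPM (ratio 0.868, 0.77 to 0.98). The highest level of any cluster with at least 30 cells, 777 and 854 CPM, lay in both libraries in an unnamed cluster led by Aif1, Tmem176b and Apoe, with 860 KO and 79 WT cells. The boundaries of the classical monocyte class moved with the clustering: the log2 ratio of Tgfb1 there was -0.32, but -0.41 with the libraries clustered separately and -0.020 with another clustering seed.

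Lymphocytes and dendritic-like cells held less Tgfb1. In B-like cells the level was 297 and 307 CPM in the KO and WT libraries, in gamma-delta-like T cells 244 and 239 CPM, and in dendritic-like cells 225 and 247 CPM, and the intervals of these ratios all included 1. Treg-like cells had 172 CPM in KO cells and 225 CPM in WT cells (ratio 0.764, 0.579 to 1), from 75 and 206 UMIs. When Treg cells were instead taken as T cells with a Foxp3 UMI, the log2 ratio of Tgfb1 was -1.07 (-1.81 to -0.40) against -0.39 for the clustered cells. Here and below, that set was drawn from all T cell clusters, also those left unnamed for their share of doublets. NK-like cells had 189 and 229 CPM (ratio 0.826, 0.722 to 0.941), a difference that was nearly absent, with a log2 ratio of -0.012, once the libraries were clustered separately. CD8-like T cells (99 and 108 CPM) and CD4-like T cells outside the Treg class (80.6 and 115 CPM) were lower again.

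Structural cells had little Tgfb1. Endothelium was at 122 and 125 CPM in the KO and WT libraries, and stroma at 46.7 and 56.9 CPM. Epithelial-like cells with a low CD45 tag had 11.7 and 11.6 CPM (ratio 1.01, 0.252 to 2.99), from 4 and 21 UMIs. Over the whole epithelial-like class the values were 329.8 and 66.9 CPM, a ratio of 4.93, and 204 of the 208 KO UMIs lay in the cells with a high CD45 tag. The class ratio thus set mostly leukocytes against mostly epithelium.

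Because the cell mixtures differed, the source of Tgfb1 RNA differed as well. Alveolar macrophages held 35% of Tgfb1 UMIs in the KO library and 52.8% in the WT library, and classical monocytes held 36.6% of those in the KO library. Over all kept cells Tgfb1 was 589 CPM in KO cells and 398 CPM in WT cells (ratio 1.48), although of the classes with at least 30 cells in each library only the mixed epithelial-like class had a Tgfb1 ratio that large. The 1.48 therefore describes the libraries, not a class, and the same holds for the other genes pooled over all cells.

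**Figure D2:**
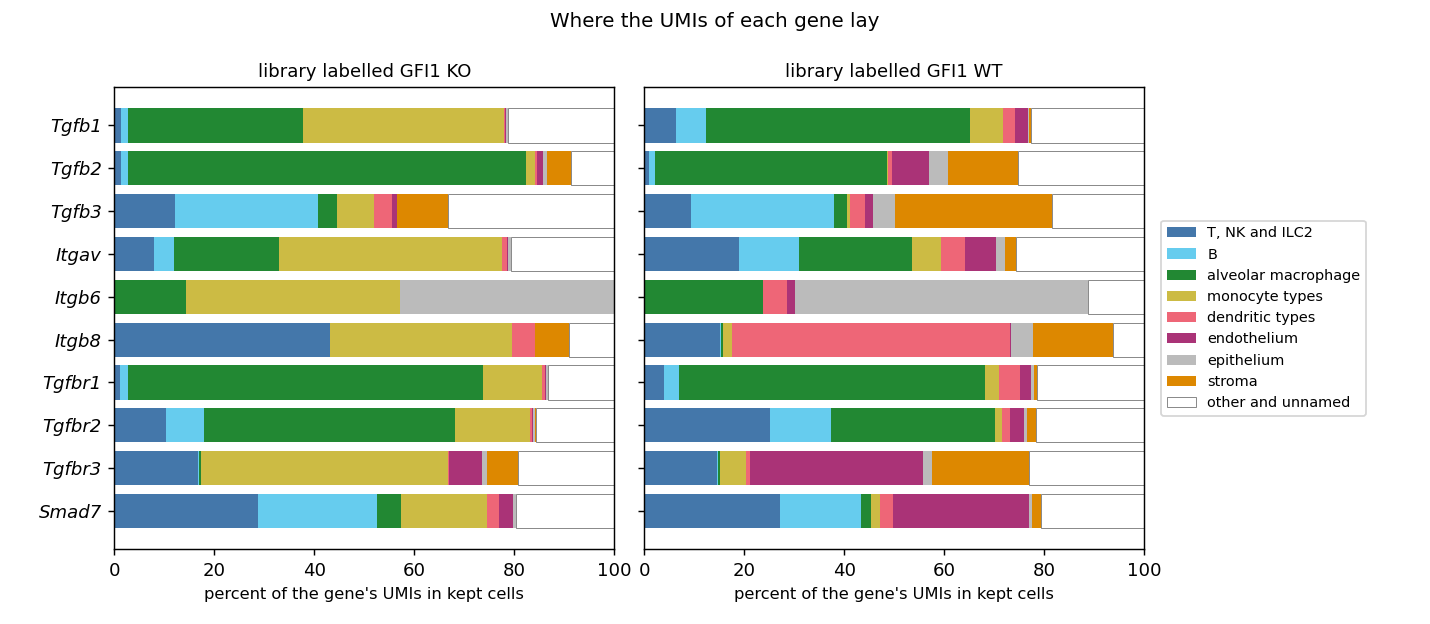
Percent of each gene's UMIs in kept cells (horizontal axis) that lay in each group of classes, for the library labelled GFI1 KO (left) and GFI1 WT (right). Alveolar macrophages held 35% and 52.8% of Tgfb1 UMIs, and dendritic types held most Itgb8 UMIs in the WT library only.

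Tgfb2 and Tgfb3 were stromal genes with far fewer UMIs. Tgfb2, the ligand without the integrin motif, stood at 168 CPM in KO and 80.4 CPM in WT stroma-like cells (ratio 2.09, 1.21 to 3.39), but the KO value came from 18 UMIs in 19 cells. In the WT library a cluster of mural type, led by Gucy1a1 and with Pdgfrb and Postn among its leading genes, had 241 CPM in 48 cells, above the 60.6 CPM of a fibroblast-type cluster led by Dcn. A second WT cluster led by Gucy1a1 and Postn, unnamed and of 43 cells, had 87.1 CPM (63.1 to 117), nearer the fibroblast-type level. Alveolar macrophages had 11.2 and 14.4 CPM of Tgfb2 (ratio 0.775, 0.674 to 0.889), and through their number they held 79.7% of its KO and 46.4% of its WT UMIs. A further 63 WT Tgfb2 UMIs lay in an unnamed cluster of 67 WT cells led by C1qa, with Prg4 and Alox15 among its leading genes, at 154 CPM. Only 8.96% of those cells had a Tgfb2 UMI, while 60.4% of the 48 mural-type cells did. Epithelial-like cells had 4.76 and 25.5 CPM over the class and 8.76 and 18.8 CPM in the cells with a low CD45 tag (ratio 0.467, 0.0918 to 1.48), from 3 and 34 UMIs, which is within counting error.

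Tgfb3 stood at 103 and 77.5 CPM in KO and WT stroma (ratio 1.32, 0.65 to 2.42), from 11 and 192 UMIs. Outside stroma the class with most Tgfb3 UMIs was the B-like class, with 10.9 CPM in KO cells and 16.4 CPM in WT cells (ratio 0.665, 0.438 to 0.978). B-like cells held 28.7% of the Tgfb3 UMIs of the KO library and 28.5% of those of the WT library, a nearly equal share. The B cell levels were spread over clusters. In the main cluster, led by Ighd, Tgfb3 was 11.6 CPM in KO and 18.5 CPM in WT cells, with a UMI in 3.16% and 5.27% of cells. A WT cluster led by Il5ra and Fcrl5 had 23.4 CPM with a UMI in 9.84%. The WT cluster with the highest Tgfb3 level, 114 CPM, was an unnamed one led by Hhip, with Aspn also among its leading genes. For both genes, then, the KO value in stroma rests on fewer than 20 UMIs. The order of the libraries in Tgfb3 was inverted as a mean over cells (log2 ratio -0.13 against 0.41) and when cells were thinned to 1500 UMIs, which left 1 KO UMI.

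Itgav, the alpha-v subunit shared by the activating integrins, had its highest levels among lymphocytes in Treg-like cells and group 2 innate lymphoid-like cells (ILC2). Treg-like cells had 429 CPM in the KO library and 573 CPM in the WT library (ratio 0.748, 0.629 to 0.885), while CD4-like T cells outside that class had 27.9 and 45.4 CPM. That CD4-like class was a single cluster led by Dusp10 and St8sia6, with Tcf7 among its leading genes. Any CD4 T cells of other clusters lie outside this comparison. The ILC2 values were 826 and 500.03 CPM, but the KO value came from 9 cells. The share of Treg-like cells with an Itgav UMI was 36.1% and 47.7%, at median depths of 3175 and 4096.5 UMIs per cell, and 27.4% and 29.1% after thinning to 1500 UMIs. The log2 ratio of -0.42 was -0.066 at a finer clustering resolution, -0.20 among T cells with a Foxp3 UMI and -0.72 as a mean over cells. B-like cells had 99.3 and 148 CPM (ratio 0.673, 0.591 to 0.764), NK-like cells 117 and 133 CPM (ratio 0.877), and nonclassical monocytes 172 and 184 CPM (ratio 0.932). In alveolar macrophages the values were 57.5 and 64.8 CPM (ratio 0.887, 0.834 to 0.944).

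In epithelial-like and endothelial-like cells Itgav was also lower under the KO label, from few KO UMIs. Epithelial-like cells with a low CD45 tag had 29.2 and 92.1 CPM of Itgav (ratio 0.317, 0.149 to 0.597), from 10 and 167 UMIs, against 72.9 and 115 CPM over the class. Those low-tag cells also differed in Sftpc (25820 and 6270 CPM), and the part of that makeup in the Itgav ratio was not tested. Endothelial-like cells had 41.6 and 71.5 CPM (ratio 0.582, 0.338 to 0.938), and the interval included 1 in their low-tag cells (ratio 0.621, 0.353 to 1.01). Stroma-like cells had 93.3 and 110.2 CPM of Itgav, from 10 KO UMIs. Their low-tag cells had nearly equal levels, 106 and 107 CPM (ratio 0.994, 0.47 to 1.86). A gamma-delta cluster led by Il23r and Scart2 was higher under the KO label, with 458 CPM from 15 KO cells and 153 CPM from 68 WT cells (ratio 2.99, 1.85 to 4.77). Over the whole gamma-delta class Itgav was 184 and 153 CPM (ratio 1.2, 0.867 to 1.69).

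Itgb6, the epithelial partner of Itgav, had its highest level in epithelium in both libraries. The 182 WT epithelial-like cells held 37 of the 63 Itgb6 UMIs of that library, at 16.8 CPM. The 159 KO epithelial-like cells held 3 of 7, at 4.76 CPM (ratio 0.282, 0.0557 to 0.892). Most of those KO cells were leukocytes by tag, so the class ratio compares unlike cells. In the cells with a low CD45 tag the values were 5.84 and 19.9 CPM from 2 and 36 UMIs, and that interval included 1 (ratio 0.294, 0.0343 to 1.14), so no difference in epithelial Itgb6 was detectable at this depth. Of the other classes, alveolar macrophages had 1 KO and 15 WT UMIs and no class was above 1 CPM.

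Itgb8 marked a few cells in each library. In Treg-like cells it was 43.5 CPM in KO cells and 72 CPM in WT cells (ratio 0.604, 0.343 to 1.02), from 19 and 66 UMIs, and 9.24% of KO and 13.1% of WT Treg-like cells had a UMI. CD4-like T cells outside the Treg class and CD8-like T cells had 0 Itgb8 UMIs in both libraries, which allows at most 9.3 CPM in KO and 1.06 CPM in WT CD4-like cells, and 1.72 CPM in KO and 0.638 CPM in WT CD8-like cells, if a count of 0 is read as fewer than 3 UMIs. The 2 T cell classes at 0 had median depths between 3459 and 4545.5 UMIs per cell, beside 3175 and 4096.5 for the Treg-like cells. The CD4-like class was the single Dusp10 and St8sia6 cluster, so its value does not cover CD4 T cells of other clusters. Among T cells with a Foxp3 UMI the log2 ratio of Itgb8 was -0.071 (-1.09 to 0.85), compared with -0.73 for the clustered Treg cells, and both intervals included 0.

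The largest Itgb8 contrast lay in dendritic-like cells, with 3.14 CPM in the KO library and 59.5 CPM in the WT library, from 2 and 245 UMIs. Nearly all of the WT UMIs, 244, lay in 108 cells of a cluster led by Ccl22 and Fscn1, genes of migratory dendritic cells, at 193 CPM. The KO library had 11 cells in that cluster, which held both of its UMIs at 27.5 CPM. The ratio within the cluster was 0.142. Once the libraries were clustered separately, the WT Ccl22 and Fscn1 cells were not named as dendritic, while KO dendritic-like cells still held 2 UMIs (log2 ratio 3.32, from 2 KO and 1 WT UMIs). The contrast thus rests on 1 cluster that the KO library barely holds. Stroma-like cells had 28 and 28.7 CPM of Itgb8, from 3 and 71 UMIs.

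**Figure D3:**
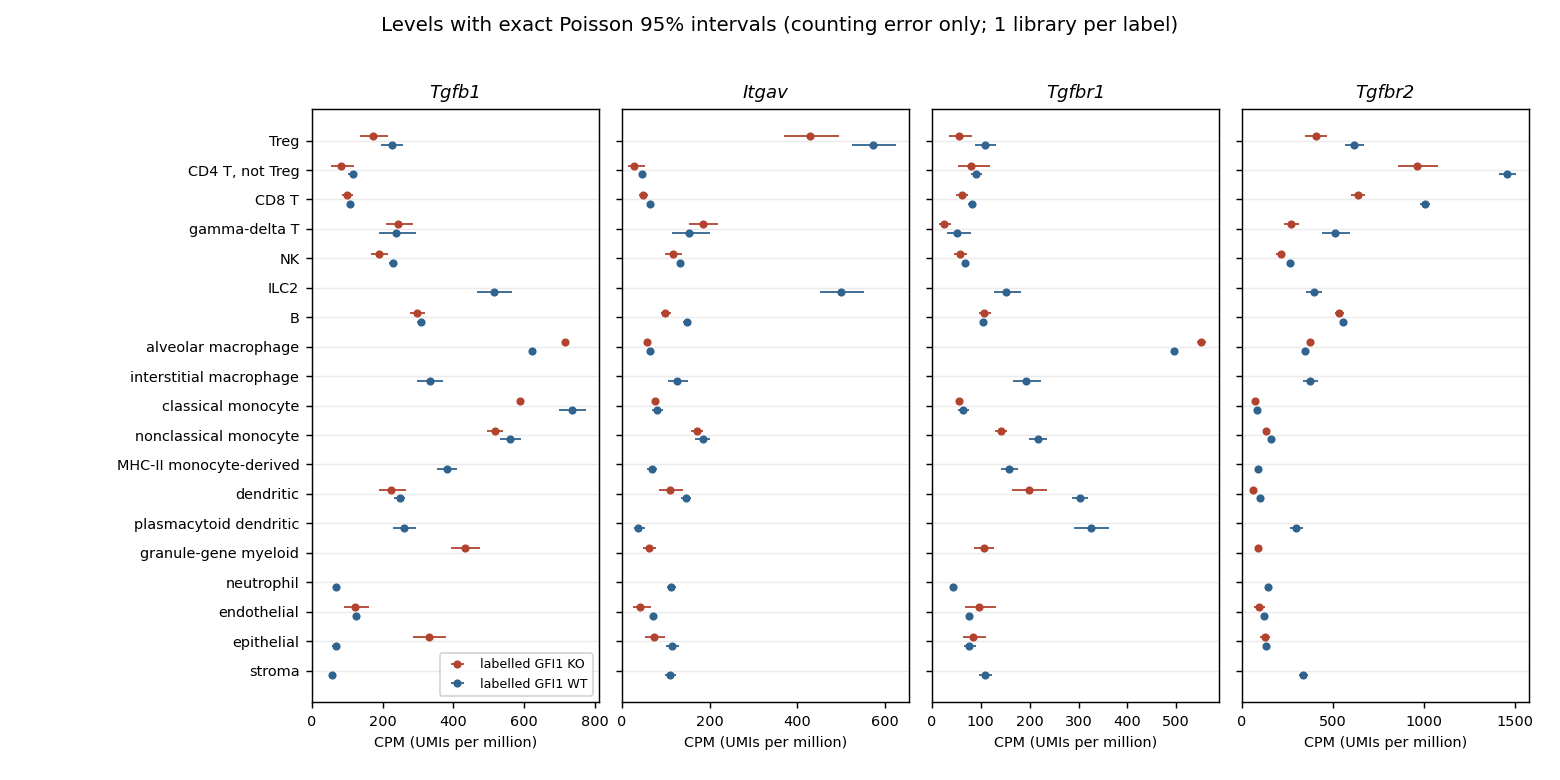
Level in CPM (horizontal axis, starting at 0) of Tgfb1, Itgav, Tgfbr1 and Tgfbr2 in each class, for the library labelled GFI1 KO (red) and GFI1 WT (blue), with exact Poisson 95% intervals. Classes with fewer than 30 cells in a library have no point for it. The Tgfbr2 points of CD4, CD8 and Treg-like T cells sit below their WT points in the KO library, and the high Tgfb1 point of the KO epithelial class comes from cells with a high CD45 tag.

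Tgfbr1, the type I receptor kinase, was highest in alveolar macrophages in both libraries. Alveolar macrophage-like cells had 551 CPM in KO cells and 496 CPM in WT cells (ratio 1.11, 1.09 to 1.13), and they held 71.1% and 61.4% of Tgfbr1 UMIs. The log2 ratio of 0.15 was 0.12 as a mean over cells and 0.087 after thinning cells to 1500 UMIs. The direction was not the same in every cluster of the class: in the largest, led by Nrg4, Tgfbr1 was 561 and 486 CPM (ratio 1.15, 1.13 to 1.18), and in one led by Ear2 it was 515 and 582 CPM (ratio 0.884, 0.839 to 0.932). Dendritic-like cells had 198 and 303 CPM (ratio 0.654, 0.54 to 0.786). Their Ccl22 and Fscn1 cluster, with 484 CPM from 611 WT UMIs, held 11 of 66 KO and 108 of 328 WT cells. The part of this makeup in the dendritic ratio was not tested. Nonclassical monocytes had 141 and 217 CPM (ratio 0.649, 0.575 to 0.733). In the unnamed WT cluster of 67 cells led by C1qa, Tgfbr1 reached 823 CPM. Treg-like cells had 55 CPM in the KO and 108 CPM in the WT library (ratio 0.509, 0.312 to 0.801), from 24 and 99 UMIs. CD8-like T cells had 60.7 and 81.8 CPM (ratio 0.742, 0.592 to 0.922) and gamma-delta-like T cells 24 and 51.1 CPM, from 16 and 18 UMIs (ratio 0.469, 0.224 to 0.975), while the B-like ratio was 1.03. The CD8-like and gamma-delta-like classes held unequal clusters, described below, whose part in these ratios was not tested.

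Tgfbr2, the ligand-binding type II receptor, was highest in CD4-like and CD8-like T cells and was lower under the KO label in every T cell class. In CD4-like T cells outside the Treg class it was 964 CPM in the KO library and 1459 CPM in the WT library (ratio 0.661, 0.587 to 0.742). CD8-like T cells had 637 and 1006 CPM (ratio 0.633, 0.593 to 0.676), Treg-like cells 406 and 617 CPM (ratio 0.658, 0.552 to 0.78), and gamma-delta-like T cells 271 and 514 CPM (ratio 0.528, 0.427 to 0.652). The sizes moved with the definition of the cells: the Treg log2 ratio of -0.60 was -1.51 in T cells with a Foxp3 UMI and -1.65 at a finer clustering resolution, and the CD8 log2 ratio of -0.66 was -1.72 with the libraries clustered separately, from 79 KO UMIs. At a coarser clustering resolution the gamma-delta log2 ratio was 0.036 against -0.92, from 163 KO and 2 WT UMIs. NK-like cells were at 214 and 263 CPM (ratio 0.812, 0.716 to 0.918). The B-like ratio was 0.968 (0.914 to 1.02) and the alveolar macrophage ratio was 1.09 (1.06 to 1.11), so these 2 abundant classes stood near equal levels. Endothelial-like cells with a low CD45 tag had 86.7 and 117 CPM (ratio 0.74, 0.504 to 1.05). Over alternative processing the endothelial log2 ratio ranged from -0.81 to 0.32. Low-tag stroma-like cells had 403 and 313 CPM (ratio 1.29, 0.902 to 1.79), and low-tag epithelial-like cells 75.9 and 89.9 CPM (ratio 0.844, 0.535 to 1.28). In cells thinned to 1500 UMIs the share with a Tgfbr2 UMI was 69.2% and 82.9% in CD4-like, 52.4% and 70.7% in CD8-like, 38.7% and 51.8% in Treg-like, and 50.7% and 53.1% in B-like cells, against 71.4% and 76.1% of B-like cells before thinning. B-like cells stood above Treg-like cells under the KO label (536 and 406 CPM), where the intervals did not overlap, and below them under the WT label (554 and 617 CPM), where they did.

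The T cell classes were also read within clusters, since Tgfbr2 levels differed between clusters and the libraries held them in different shares. The CD8-like class was made mostly of a cluster led by Dapl1, with Lef1 among its leading genes, in the WT library, 799 of 1058 cells, and of a cluster led by Scart1, with Sidt1, in the KO library, 202 of 358 cells. Within the Dapl1 and Lef1 cluster Tgfbr2 was 985 and 1111 CPM (ratio 0.886, 0.795 to 0.986), and within a smaller unnamed Dapl1 and Neto2 cluster it was 732 and 869.9 CPM (ratio 0.841). The latter held 23 KO and 131 WT cells. In the Scart1 and Sidt1 cluster it was 598 and 909 CPM (ratio 0.657), and in a cluster with Ccl5 and Gzmk among its leading genes it was 294 and 494 CPM (ratio 0.595). Lef1, a transcription factor of naive T cells, was also lower, at 1567 and 2968 CPM in KO and WT CD8-like cells, 1779.6 and 2678 CPM in CD4-like cells, and 543 and 847 CPM in Treg-like cells. The gamma-delta class was split as well, with 130 KO and 2 WT cells in a cluster led by Il17a and Scart1, and 15 KO and 68 WT cells in the one led by Il23r and Scart2, where Tgfbr2 was 336 and 517 CPM (ratio 0.65). The part of this makeup in the class differences was not tested.

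**Figure D4:**
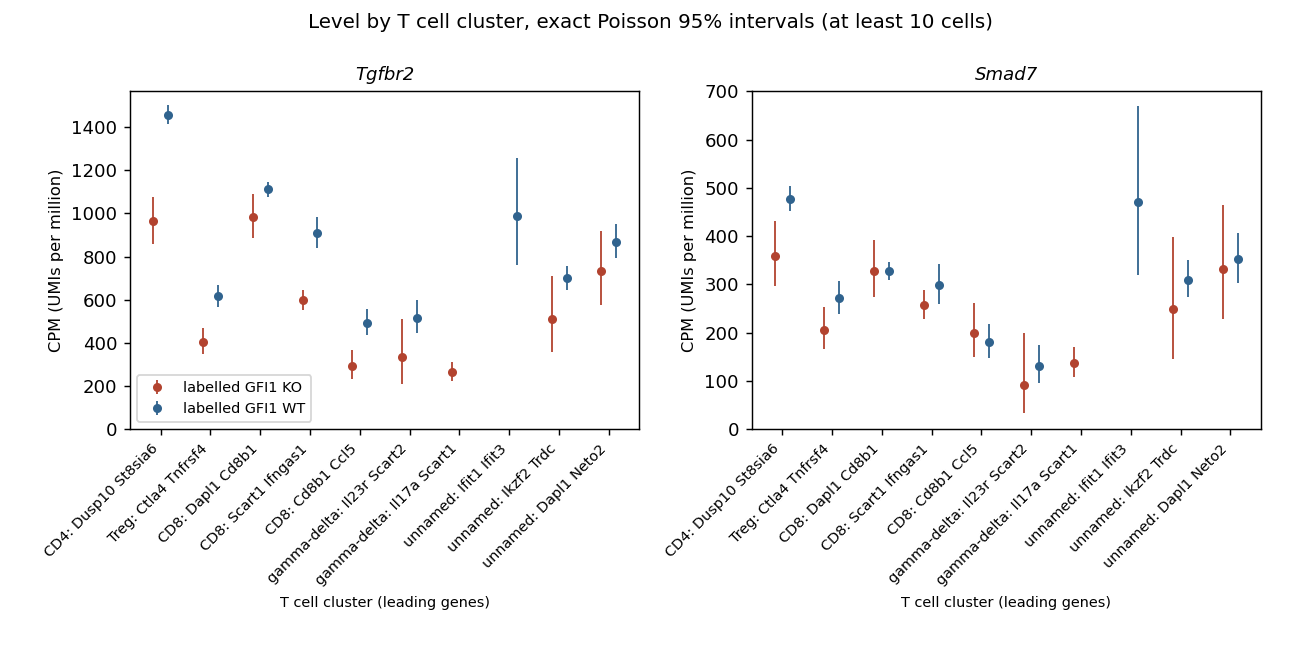
Level in CPM (vertical axis, starting at 0) of Tgfbr2 (left) and Smad7 (right) in each T cell cluster that is not led by doublets, for the library labelled GFI1 KO (red) and GFI1 WT (blue), with exact Poisson 95% intervals and points only for at least 10 cells. Tgfbr2 is lower under the KO label in each cluster shown with both libraries, with ratios from 0.595 to 0.886. These ratios are given without their intervals, and some clusters hold few KO cells.

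Tgfbr3, the co-receptor betaglycan, was highest in stroma at 653 CPM in KO cells and 531 CPM in WT cells (ratio 1.23, 0.953 to 1.57). Endothelial-like cells had 174 and 209 CPM (ratio 0.833, 0.648 to 1.05), CD4-like T cells 167 and 192 CPM (ratio 0.871), and nonclassical monocytes 119 and 134 CPM (ratio 0.884, 0.766 to 1.02). Classical monocytes were nearly without Tgfbr3, at 2.78 and 5.84 CPM from 96 and 11 UMIs, so nonclassical exceeded classical monocytes in both libraries. In CD8-like T cells the ratio was 0.567 over the class (32.1 and 56.5 CPM) but 1.18 within the Dapl1 and Lef1 cluster (84 and 71.2 CPM). Epithelial-like cells had 17.4 and 56 CPM over the class and 29.2 and 53.5 CPM in the cells with a low CD45 tag (ratio 0.546, 0.254 to 1.05), from 10 and 97 UMIs. ILC2-like cells had 213 CPM from 8 KO UMIs and 40.9 CPM from 33 WT UMIs (ratio 5.2, 2.08 to 11.5), and NK-like cells had 1.47 and 5.65 CPM. The WT cluster with the highest level, 1429 CPM, was the unnamed one led by Hhip that also held the highest Tgfb3.

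Smad7, the feedback inhibitor, was a lymphocyte and endothelial gene. In endothelial-like cells it was 235 CPM in the KO and 386 CPM in the WT library (ratio 0.609, 0.492 to 0.745), and stroma-like cells had 28 and 112 CPM (ratio 0.249, 0.0511 to 0.736), from 3 KO UMIs, an interval that reached 1 in the cells with a low CD45 tag (ratio 0.338, 0.0692 to 1). CD4-like T cells outside the Treg class had 359.6 and 477 CPM (ratio 0.754, 0.618 to 0.912), CD8-like T cells 264 and 305 CPM (ratio 0.866, 0.778 to 0.962), and Treg-like cells 206 and 272 CPM (ratio 0.759, 0.59 to 0.97). B-like cells were higher under the KO label, with 279 and 243 CPM (ratio 1.15, 1.06 to 1.24), although in the main B cell cluster, led by Ighd, the interval included 1 (ratio 1.08, 0.996 to 1.18). NK-like cells did not differ beyond counting error, with 145 and 146 CPM (ratio 0.992, 0.849 to 1.15). Alveolar macrophages, the class with most Tgfbr1, had the lowest Smad7 level of the classes with at least 30 cells, 5.78 and 7.7 CPM, and classical monocytes had 14.2 and 21.2 CPM. Within the CD8 clusters Smad7 stood at 328 and 327 CPM in the Dapl1 and Lef1 cluster, at 257 and 299 CPM in the Scart1 and Sidt1 cluster (ratio 0.861, near the class ratio), and 199 and 180.3 CPM in the Ccl5 and Gzmk cluster, and the unnamed Dapl1 and Neto2 cluster had 331 and 352 CPM. In endothelium the main capillary-type cluster led by Sema3c and Ptprb had 233 and 406 CPM (ratio 0.575, 0.456 to 0.715). A smaller cluster led by Emp2 and Fibin, of 15 KO and 334 WT cells, had 248 and 279.6 CPM from 14 KO UMIs, with an interval that holds both 1 and the main cluster's ratio (ratio 0.886, 0.481 to 1.5).

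The genes were also counted against the background of each class. A gene was called where it had at least 30 UMIs in the class over both libraries and its ratio was at least 2 or at most 1/2, a gene at 0 in 1 library counting as past the fold. In CD4-like T cells 0 of 6 genes with enough UMIs were called, against 10.6% of all genes, and in CD8-like T cells 0 of 6 against 6.48%. Treg-like cells had 0 of 7 against 6.23%, B-like cells 0 of 6 against 3.77%, alveolar macrophages 0 of 6 against 4.35%, nonclassical monocytes 0 of 6 against 4.2%, and endothelium 0 of 7 against 14.4%. In gamma-delta-like cells 1 of 6 was called, lower Tgfbr1, against 15.1%, over the unequal clusters described above. The differences in Tgfbr2 described above were therefore less than 2-fold in each of these classes. The median log2 ratio of the genes with enough UMIs was -0.44 in CD4-like, -0.42 in CD8-like and -0.42 in Treg-like cells, beside -0.022, -0.031 and -0.0079 over all genes.

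Most calls were made in classes with few KO cells or near the detection limit. In NK-like cells 1 of 7 genes was called, lower Tgfbr3, against 14.6% of all genes, and in classical monocytes 1 of 6, also lower Tgfbr3, against 14.6%. Dendritic-like cells had 2 of 7, lower Itgb8 and Tgfbr3 (0 KO and 39 WT UMIs, at least 2.01-fold lower), against 12.2%. The epithelial-like class, whose KO cells were mostly leukocytes by tag, had 4 of 8, higher Tgfb1 and lower Tgfb2, Tgfbr3 and Itgb6, against 28.9%, and nothing is read from them. Stroma had 2 of 9, higher Tgfb2 and lower Smad7, against 25.9%. Among classes with fewer than 30 cells in 1 library, ILC2-like cells had 2 of 6 against 36.9%, interstitial macrophage-like cells 2 of 5 against 20.1%, MHC-II monocyte-derived-like cells 1 of 5 against 22.8%, plasmacytoid dendritic-like cells 1 of 5 against 16.6%, granule-gene myeloid-like cells 2 of 4 against 40.1%, neutrophil-like cells 3 of 5 against 50.7%, and basophil-like cells 0 of 1 against 19.2%.

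**Figure D5:**
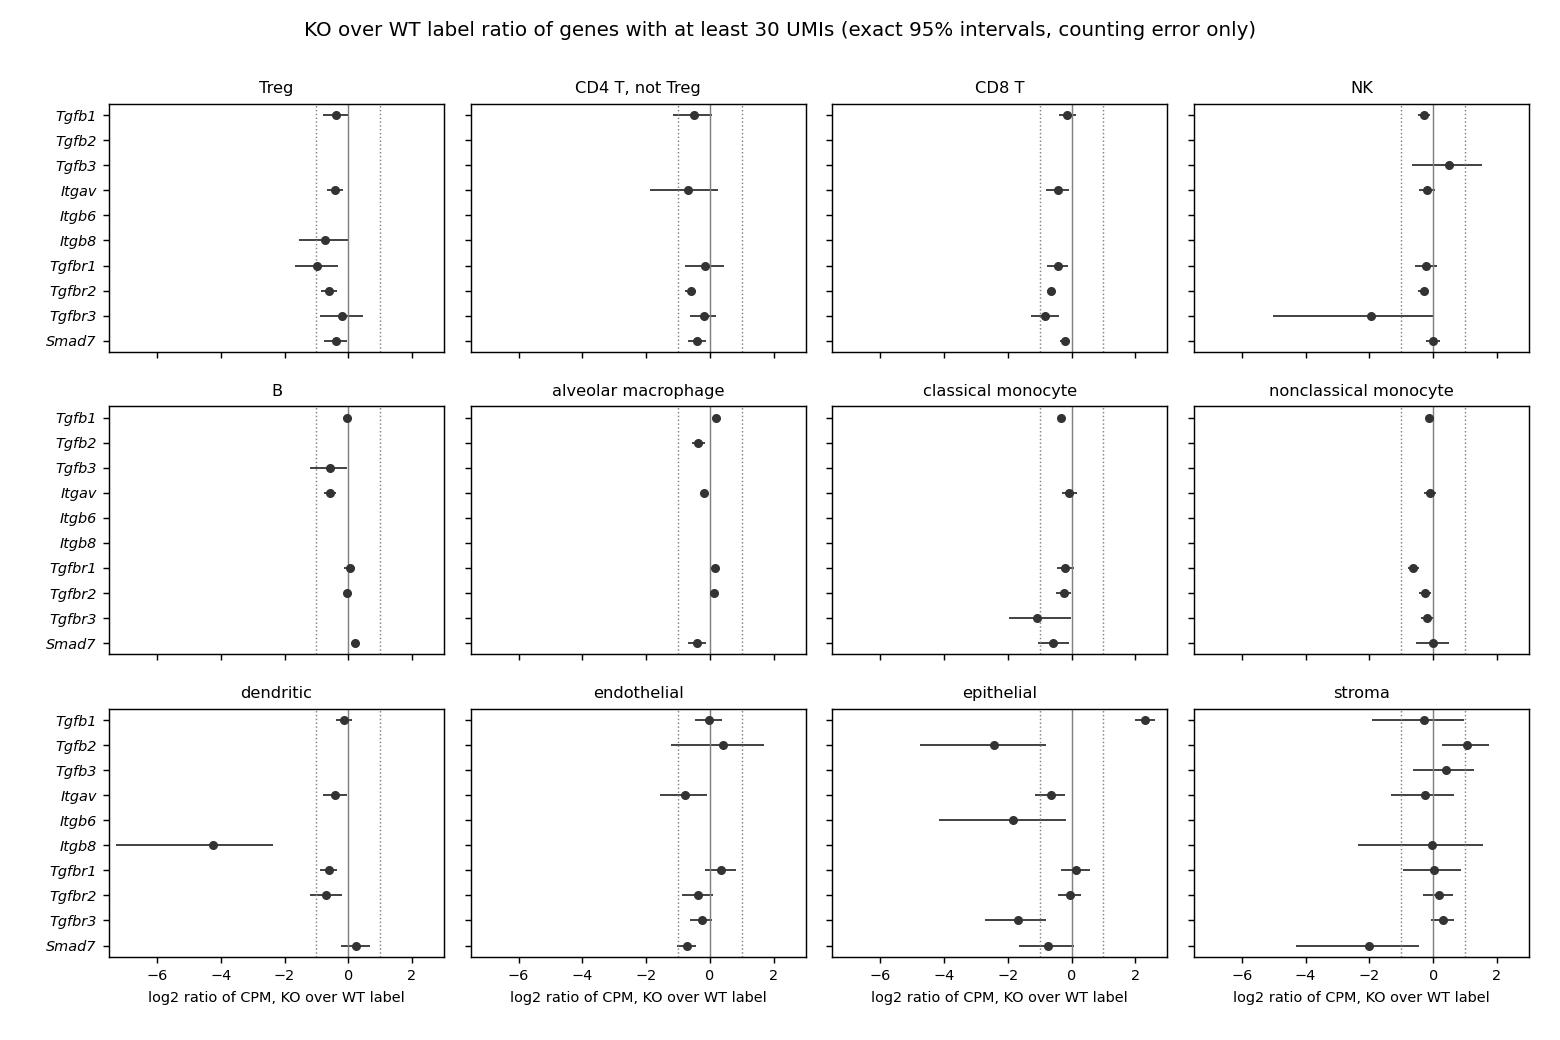
Log2 ratio of CPM, GFI1 KO over GFI1 WT label (horizontal axis), with exact 95% intervals, for genes with at least 30 UMIs in a class and at least 1 UMI in each library. The solid line marks equal levels and the dotted lines a 2-fold difference. In Treg, CD4 and CD8-like T cells the Tgfbr2 points lie between -0.66 and -0.60, and the intervals widen in classes with few KO cells. The epithelial panel compares mostly leukocytes by antibody tag (KO) with mostly epithelium (WT).

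Other genes of the pathway were read from 5 lists with the same call rule. Among genes that store, release or process the latent complex, Nrros, which anchors latent TGF-beta on myeloid cells, was 422 and 392 CPM in KO and WT classical monocytes and 261 and 281 CPM in alveolar macrophages. Lrrc32, its anchor on regulatory T cells, chosen after its values were seen, was 52.7 and 54.6 CPM in Treg-like cells (ratio 0.966, 0.562 to 1.61). Thbs1 is a matrix protein that can activate the complex. It was called higher under the KO label in 10 of 15 classes with enough UMIs and lower in 0. In those 10 classes 3.77% to 40.1% of all genes were called. They included the granule-gene myeloid-like class and the mixed epithelial-like class, which compare unlike cells. Thbs1 was itself most abundant in classical monocytes, with 2560.5 and 3466 CPM, the class that made up much of the KO library. In B-like cells Thbs1 was 29.1 and 4.3 CPM, where the monocyte gene Ly6c2 was 19.6 and 10.4 CPM and S100a8 was 18.2 and 14.5 CPM, and the part of monocyte RNA in the Thbs1 values was not tested.

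Among receptors and Smads, Eng, an endothelial co-receptor, was called lower under the KO label in 8 of 13 classes with enough UMIs. In those 8 classes it was at most 103 CPM, and 3.77% to 50.7% of all genes were called. Among them, ILC2-like and neutrophil-like cells had 0 KO UMIs of Eng, MHC-II monocyte-derived-like cells 2, and the mixed epithelial-like class 4. Endothelial-like cells had 1114 and 1449 CPM of Eng (ratio 0.769, 0.699 to 0.844). The endothelial gene Cldn5 was also lower in KO than in WT cells of those 8 classes, for example 0.351 and 3.65 CPM in B-like cells and 0.332 and 7 CPM in alveolar macrophages. The part of endothelial RNA in these Eng values was not tested. Smad6, the inhibitory Smad of the BMP branch, was 333 and 635 CPM in endothelium (ratio 0.524, 0.439 to 0.621), beside the Smad7 ratio of 0.609 there. Bambi, a decoy receptor, was called lower in 5 of 14 classes with enough UMIs. In those 5 classes 6.48% to 36.9% of all genes were called. Among them were CD4-like T cells, with 9.3 and 45.8 CPM from 3 and 130 UMIs, against 10.6%. In Treg-like cells 12 of the 15 Smads and regulators had enough UMIs and 0 were called, against 6.23% of all genes, with a median log2 ratio of -0.47. Tgfbi, a TGF-beta target, was called higher in 8 of 15 classes with enough UMIs and lower in 0. It stood at 1069.9 and 523 CPM in classical monocytes, where 14.6% of all genes were called. Nonclassical monocytes had 422 and 185 CPM, against 4.2%. The other classes included NK-like, ILC2-like and endothelial-like cells, and also the granule-gene myeloid-like and mixed epithelial-like classes, which compare unlike cells. Classical monocyte-like cells numbered 3525 KO and 260 WT, over unequal clusters. The part of this makeup and of monocyte RNA in the Tgfbi values was not tested. Itgae, the CD103 subunit and a TGF-beta target in T cells, was chosen after its values were seen: it was 64.2 and 144 CPM in Treg-like cells (ratio 0.445, 0.285 to 0.674) and 19.5 and 73.5 CPM in CD8-like cells (ratio 0.265, 0.18 to 0.377), while dendritic-like cells had 382 and 323 CPM. The CD8-like value was taken over the unequal clusters described above, and their part in the Itgae ratio was not tested.

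Over the 5 lists, calls are set beside the share of all genes called in the same class. In CD8-like T cells, where 6.48% of genes were called, 0 of 14 Smads and regulators with enough UMIs were higher and 1 lower, with a median log2 ratio of -0.52, 1 of 6 other receptors was higher and 2 were lower, and of 4 target genes 1 was higher and 1 lower. Of the other integrin subunits, Itgb3, a beta partner of Itgav, was called higher there at 71 and 23.4 CPM (ratio 3.04, 2.33 to 3.96). These CD8-like values were also taken over unequal clusters, whose part in them was not tested. In gamma-delta-like T cells, where 15.1% of genes were called, 2 of 3 integrin subunits were higher: Itgb1 at 517 and 105 CPM (ratio 4.92, 3.5 to 7.11) and Itgb5 at 85.5 and 17 CPM (ratio 5.02, 2.17 to 14.2), over the unequal clusters described above, while Itgb3 was 121 and 236 CPM. In alveolar macrophages, where 4.35% were called, 1 of 8 latency genes was higher and 2 were lower, 0 of 8 receptors were higher and 1 was lower, and 0 of 15 Smads and regulators were called. In classical monocytes, against 14.6%, 2 of 6 target genes were higher and 1 was lower, and 0 of 14 Smads and regulators were higher and 2 lower. In endothelium, against 14.4%, 0 of 11 latency genes were higher and 3 lower, and 3 of 11 target genes were higher and 3 lower.

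The genes whose levels followed each gene most closely were found over 31 profiles, each a class in a library with at least 30 cells, from 19 classes and 12912 genes. The profiles of a library share its depth and free RNA, and the correlations are descriptive. Smad7 was followed most closely by Arap2 (Pearson r = 0.953), Tgfbr2 by Rmnd5a (0.896), Tgfb2 by Lzts2 (0.873), Tgfbr1 by Vkorc1l1 (0.845), Tgfb3 by Sox5 (0.831), Tgfb1 by Adam17 (0.823), Tgfbr3 by Frmd6 (0.771), Itgb8 by Rnf152 (0.767) and Itgav by Gcnt1 (0.751). Itgb6 had under 100 UMIs in all and was left out.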

How the data were processed

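Live lung cells from 1 GFI1 KO and 1 GFI1 WT library were counted by the authors with Cell Ranger 9.0.1 on GRCm39, per the labels. The deposited files held raw UMI counts per gene and 18 antibody tags for each barcode, and these counts were used as deposited. Barcodes needed 500 UMIs, 200 detected genes and at most 20% mitochondrial UMIs to be kept, and 9538 ribosomal, mitochondrial and Gm- genes were not used. The study states duplicate libraries per genotype, of which 1 each was analysed here, and the number of mice per library was not given in the sources used here.

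With Python 3.11.15 and scanpy 1.11.5, both libraries were clustered jointly (2000 variable genes chosen without the genes described here or the pathway lists, 50 components, 15 neighbours, Leiden resolution 0.8), and clusters with Cd3e UMIs in 30% of their cells or more were clustered again as T cells. A marker counted where it was 2-fold above the other cells and present in 10% of the cluster's cells. Outside T cells, a cluster was named where at least 60% of a type's markers, and at least 3, counted. Clusters with mixed markers or led by cycling genes, and the classical monocyte-like cluster, were clustered once more. T cell clusters needed 3 general T cell markers and were then named against the other T cells. CD8-like needed Cd8a and Cd8b1 without Cd4, and CD4-like needed Cd4 without Cd8b1. Gamma-delta-like needed 3 of its markers without Cd4 or Cd8a, and Treg-like Foxp3 with 60% of its markers above all other cells. Clusters with at least 50% Scrublet doublets stayed unnamed. These naming thresholds were set after the data were seen. The processor settings of the clustering were fixed after an earlier run had been seen, because its numerics moved the boundaries of the monocyte and epithelial classes. Other cells called doublets were kept.

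UMIs were summed per class and library. Levels have exact Poisson intervals, ratios conditional binomial intervals and shares of cells Clopper-Pearson intervals, all for counting error only, and the code was tested on simulated data. Genes named beside the 10 came from those with 1 of the 3 highest levels of their list or called the same way in at least 3 classes, apart from Lrrc32 and Itgae. The genes and lists were chosen with earlier results of these data known.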

Additional observations from a re-analysis of the deposited data

Results flagged for a closer look

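The ratio of 3 genes went in opposite directions in small or low-level classes, given here as log2 ratios, KO over WT label. For Tgfb2 it was 1.064 in stroma-like cells, from 18 KO and 199 WT UMIs, and -2.422 in epithelial-like cells, from 3 and 56 UMIs (ratio 0.467, 0.0918 to 1.48, in the epithelial-like cells with a low CD45 tag). For Tgfbr2 it was 1.151 in MHC-II monocyte-derived-like cells, from 23 and 173 UMIs in 13 and 187 cells, and -2.283 in neutrophil-like cells, from 3 and 620 UMIs in 8 and 1432 cells. For Tgfbr3 it was 2.38 in ILC2-like cells, from 8 and 33 UMIs, while it was -1.945 in NK-like cells, from 2 and 46 UMIs, -1.072 in classical monocyte-like cells, from 96 and 11 UMIs, and -1.682 in epithelial-like cells, from 11 and 123 UMIs (ratio 0.546, 0.254 to 1.05, with a low CD45 tag). By antibody tag most KO epithelial-like cells were leukocytes, and the KO neutrophil-like cells had a median Ly6G tag of 11 against 242.5. With 1 library per label the differences between these classes were not tested.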

How the results depend on the processing

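Over 23 ratios and 239 alternative values, 231 kept the direction of the main log2 ratio. For the 12 ratios chosen at the outset, 118 values stayed within the counting interval of the main value and 8 moved beyond it. With the libraries clustered separately, the log2 ratio of Tgfb1 was -0.012 in NK-like cells (main -0.28) and -0.41 in classical monocyte-like cells (main -0.32), and that of Tgfbr2 in endothelial-like cells was 0.32 (main -0.37). Another clustering seed, added after seeing the data, gave -0.020 for Tgfb1 in classical monocytes, from 18080 KO and 298 WT UMIs, and moved no other value beyond its interval. Tgfb1 in cells with a Foxp3 UMI gave -1.07 (main -0.39), thinned cells gave -1.13 for Tgfb3 in stroma (main 0.41), from 1 KO UMI, and Tgfbr1 in alveolar macrophage-like cells gave 0.12 as a mean over cells and 0.087 when thinned (main 0.15). Among 11 ratios added later, 101 values stayed within the interval, 10 moved and 2 were reversed. Itgb8 in dendritic-like cells was 3.32 (main -4.24) with separate clustering, from 2 KO and 1 WT UMIs, as the WT Ccl22 and Fscn1 cells were not named as dendritic there. Tgfbr2 in gamma-delta-like cells was 0.036 (main -0.92) at resolution 0.5, from 163 KO and 2 WT UMIs. In CD8-like cells Tgfbr2 was -1.72 with separate clustering (main -0.66), from 79 KO UMIs, and in Treg-like cells -1.65 at resolution 1.2 and -1.51 with a Foxp3 UMI (main -0.60). Except where stated, the cause of a shift was not tested. Thinned cells gave no value for Itgb6 in epithelium or Itgb8 in dendritic-like cells. Leaving out barcodes found in both libraries, also added later, moved no value beyond its interval, nor did keeping endothelial, stromal and epithelial-like cells with a CD45 tag count under 50, though the Itgb6 interval then included a log2 ratio of 0 (-1.77, from 2 KO UMIs). Itgb6 was the only epithelial ratio in this check. The epithelial Tgfb1 ratio, far above 1 over the class, was not among the 23 and was 1.01 in the low-tag cells. No paired analysis was possible because each label has 1 library. KO stroma and dendritic-like cells, at 19 and 66 cells, limit what their ratios can show.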
